A study of Mus musculus with 8 samples.

Results

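The apical polarity genes of the outer limiting membrane were examined in photoreceptor cells isolated from the mouse retina at postnatal day 8. The set was chosen by name from what the proteins do and not from their signal, though with earlier results of these data known. It held 10 genes, Crb1, Crb2, Mpp5, Patj, Mpp3, Mpp4, Pard3, Pard6a, Prkci and Llgl1. They were measured by 23 of the 56605 probes on a SurePrint G3 mouse gene expression array hybridised in a single color, and these were the probes whose RefSeq accession belonged to one of the 10 genes among 22911 genes with a symbol. There were 4 arrays labelled Lpcat1 HZ (heterozygous) and 4 labelled Lpcat1 KO, all of strain C57BL/6. HZ and KO below name arrays by these labels. The KO lacks LPCAT1, an enzyme that makes saturated phosphatidylcholine, in the whole animal, and HZ mice carry the same mutant allele once. The mice came from a C57BL6/N line that had been crossed with C57BL6/J because the N line carries rd8, a mutation of Crb1 itself, and mice homozygous for rd8 were not used. Which of the mice were heterozygous for rd8 is not given in the sources used here. Cells were dissociated with trypsin and collected with beads against CD73, a surface marker of photoreceptor cells. How many mice went into an array is not given either, so that p-values measure only the spread between these samples.

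The outer limiting membrane is the row of adherens junctions between photoreceptor inner segments and the end feet of Muller glia. Just apical to these junctions lies the Crumbs complex, in which the transmembrane proteins CRB1 and CRB2 bind the scaffold PALS1 (the product of Mpp5) and, through it, PATJ and MAGUK scaffolds such as MPP3 and MPP4. The Par complex of PARD3, PARD6 and atypical protein kinase C (encoded by Prkci) works beside it, and LLGL1 opposes the kinase at the lateral membrane. Loss of Crumbs proteins from the retina is known to break these junctions and to cause retinal degeneration. In the mouse CRB1 has been reported mainly in Muller glia, which may not hold for every isoform, and CRB2 in photoreceptor cells as well.

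The arrays lay on the same slide, and slide row cannot be told apart from genotype, since row 1 held the KO arrays and row 2 the HZ arrays. Signals are given as log2 intensity minus the array's 75th percentile (882 to 1024 intensity units), a scale on which values compare arrays for one probe and not probes with each other. Lpcat1, measured by a single probe, had -0.81, -0.95, -1.02 and -1.17 on HZ arrays and -0.97, -1.16, -1.11 and -0.85 on KO arrays, a difference of -0.037 that gives no check of the labels, since it was not analysed here whether the probe lies in the deleted part. All 8 markers of a rod list were well above background on every array, and Nt5e, which encodes CD73, read between 4.05 and 4.39. RPE markers, in contrast, were lower on KO arrays for 14 of 14 genes tested, with a median log2 difference of -1.68, while 9 of 9 microglia markers were higher, with a median of 0.81. The scanner software called 458 spots of HZ replicate 4 non-uniform, and 2 to 25 spots of any other array.

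None of the polarity genes passed the study's thresholds. All 23 probes were tested, and 0 passed a fold change over 1.2 with an adjusted p under 0.05 in limma, where 0% of the 34280 tested probes passed, and 0 passed a fold change over 1.5 with an adjusted p under 0.5, where 0.811% of the tested probes were lower on KO arrays and 0.228% were higher. At an unadjusted p under 0.05 limma called 3 member probes higher, where 4.69% of all tested probes were higher, and 0 lower, where 3.49% were lower. These 3 probes belonged to Pard3 (2 probes) and Llgl1, and without KO replicate 4 a single one, Pard3 A_52_P224323, was left. Lower calls at that level appeared under some alternatives. Without HZ replicate 2 there were 5 calls, of which Crb1 A_55_P2132498 and Patj A_55_P2104425 were lower. With the replicate number as a block there were 4, with that Crb1 probe lower. The methods' t-test also called 4, with Crb2 lower, and 0 at the strict thresholds. Normexp background correction left 2, a Pard3 probe higher and Mpp4 A_55_P2064856 lower. Over all 34280 tested probes, calls at an unadjusted p under 0.05 moved too, from 2802 in the main fit to 4996 without HZ replicate 2. They were 4075 with the block, 3134 with the methods' t-test, 3410 with normexp background correction and 2141 without KO replicate 4. Differences among the member probes ran from 1.34-fold lower, for Crb1, to 1.31-fold higher, for a Pard3 probe, with adjusted p-values between 0.519 and 0.986 in limma. Their median size was 0.093 on the log2 scale, with 0.135 for all tested probes, and for 16 of the 23 the whole 95% interval lay within a 1.5-fold change either way. Taken by the brightest probe of each gene, 6 of the 10 genes were lower on KO arrays and 4 higher, with a median log2 difference of -0.039, against 0.029 over 14840 tested genes. Leaving out HZ replicate 4 turned that median to 0.029 and leaving out KO replicate 2 to 0.014, so its sign rested on single arrays.

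**Figure D1:**
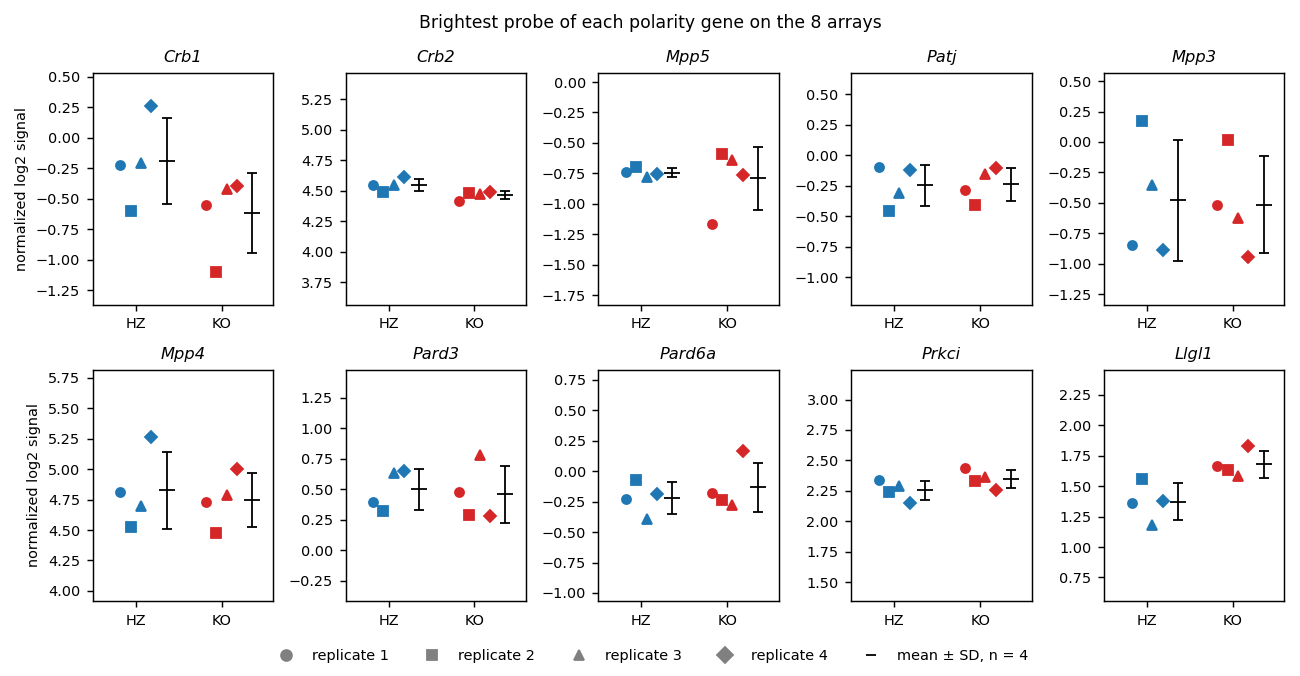
Normalized log2 signal of the brightest probe of each of the 10 genes (y axis; every panel spans the same range) on the 4 HZ arrays (blue) and the 4 KO arrays (red). Symbols mark the replicate number and bars the mean ± SD (n = 4). The groups are apart only for Crb2 and Llgl1, and replicate 2 is the highest of each group for Mpp3 and the lowest of each group for Crb1 and Mpp4.

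**Figure D2:**
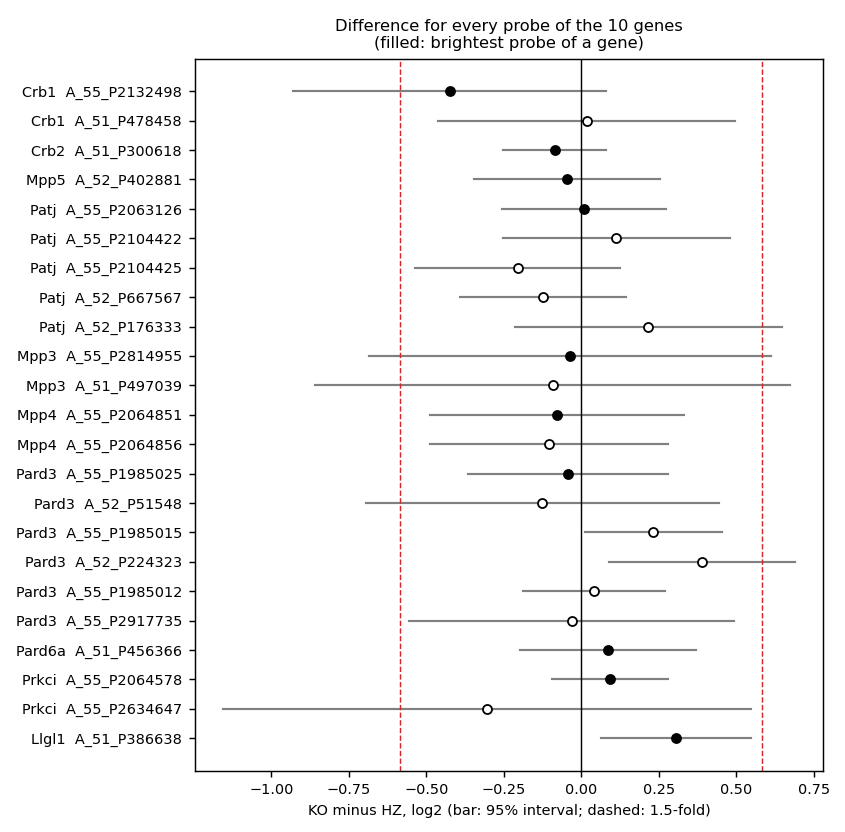
Difference between KO and HZ arrays (x axis, log2) for every probe of the 10 genes, with its 95% interval from limma as a bar. Filled points mark the brightest probe of a gene and dashed lines a 1.5-fold change. Intervals that exclude 0 are those of Pard3 probes A_55_P1985015 and A_52_P224323 and of Llgl1.

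Crb1, which encodes a transmembrane protein with a large extracellular part and a short cytoplasmic tail, showed the largest difference of the set. On its brighter probe (A_55_P2132498) the normalized log2 signal was -0.23, -0.60, -0.20 and 0.26 on HZ arrays and -0.55, -1.10, -0.42 and -0.39 on KO arrays. HZ replicate 4 was the highest of all and KO replicate 2 the lowest, and HZ replicate 2 lay among KO arrays, so the groups overlapped. Between arrays of equal replicate number, however, in 4 of 4 cases the KO array had the lower value. The share of all tested probes that did so was not counted, here or for the probes below. Among the member probes the KO array was also lower in 4 of 4 cases for Crb2. It was higher in 4 of 4 for Llgl1, Prkci A_55_P2064578 and Pard3 A_55_P1985015. The difference was -0.42 (standard error 0.22, 95% interval -0.93 to 0.080, limma adjusted p = 0.651), smaller without KO replicate 2, at -0.26, and after normexp background correction, at -0.21. With the replicate number as a block its standard error was 0.10 and its unadjusted p 0.00857, below 0.05, while the limma adjusted p was 0.351 in a range of 0.325 to 0.902 over the alternatives. A dimmer Crb1 probe (A_51_P478458) with the same accession gave -2.68 ± 0.41 (SD, n = 4) and -2.66 ± 0.21 (SD, n = 4), a difference of 0.018 (standard error 0.21). The probes of Crb1 thus gave different directions, and neither was past a threshold.

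Crb2, whose protein has been reported in photoreceptor cells as well, varied least over the 8 arrays among the member probes. Its probe read 4.54, 4.49, 4.54 and 4.62 on HZ arrays and 4.41, 4.48, 4.47 and 4.49 on KO arrays. Every array of KO lay below every HZ array, which 2.14% of all tested probes did, but the nearest arrays of the groups (4.491 and 4.487) were almost level. The difference of -0.084 (standard error 0.072, 95% interval -0.25 to 0.082, limma adjusted p = 0.759) was a 0.943-fold level, and the interval leaves out a change of 1.5-fold in either direction.

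Mpp5 and Patj complete the core complex. Mpp5, whose product PALS1 holds the complex together, had -0.74, -0.70, -0.78 and -0.75 on HZ arrays, and -1.16, -0.59, -0.64 and -0.76 on KO arrays. KO replicate 1 stood alone at the bottom. The difference of -0.047 (standard error 0.13) became 0.077 without that array. Patj encodes a scaffold built from many PDZ domains and was read by 5 probes on 3 accessions. Its brightest probe (A_55_P2063126) differed by 0.0091 (standard error 0.11, 95% interval -0.25 to 0.27). The 4 dimmer probes differed by -0.20 to 0.22. Those on NM_001005784 (A_55_P2104425 and A_52_P667567) were lower, at -0.20 and -0.12, and those on NM_001005787 (A_55_P2104422 and A_52_P176333) higher, at 0.11 and 0.22. All 5 overlapped between the groups and none had an adjusted p under 0.721, and the interval of each of the 5 differences holds 0. Whether the isoforms differed from each other was not tested.

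The MAGUK scaffolds Mpp3 and Mpp4 differed far more between arrays of one genotype than between genotypes. On the brighter Mpp3 probe (A_55_P2814955) the values were -0.85, 0.17, -0.36 and -0.89 on HZ arrays and -0.51, 0.014, -0.62 and -0.94 on KO arrays. Replicate 2 was the highest array of either group. The group means differed by -0.036 (standard error 0.28, limma adjusted p = 0.976), with SDs of 0.50 (n = 4) and 0.40 (n = 4). The dimmer Mpp3 probe (A_51_P497039) had its highest values on the same arrays, -1.96 on HZ replicate 2 and -1.94 on KO replicate 2, where the other arrays lay between -3.34 and -2.51. In the main fit, which does not pair the arrays, the intervals were -0.69 to 0.61 and -0.86 to 0.67, wide enough to hold a 1.5-fold change. With the replicate number as a block the standard errors were smaller, at 0.12 and 0.20. No interval is given for that fit, so whether it holds a 1.5-fold change is not stated here.

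Mpp4, a scaffold known from photoreceptor cells, where it lies at the outer limiting membrane and at the rod terminal, ran the other way across the arrays. Its brighter probe (A_55_P2064851) read 4.82, 4.52, 4.70 and 5.26 on HZ arrays and 4.73, 4.47, 4.79 and 5.004 on KO arrays. On the brighter probes of both genes, the array with the highest Mpp3 in a group had the lowest Mpp4, the second highest had the second lowest, and so on to the last array. The dimmer probes did not keep this order on HZ arrays. Mpp4 A_55_P2064856 had 1.003, 0.69, 0.57 and 0.80 on HZ arrays, lowest on replicate 3, and 0.78, 0.20, 0.82 and 0.84 on KO arrays, in the same order as the brighter probe. The dimmer Mpp3 probe shared replicate 2 as the highest array but not the order of the others. The genotypes differed by -0.078 (standard error 0.18, 95% interval -0.49 to 0.33, limma adjusted p = 0.908), and the direction turned without HZ replicate 4 (0.068) and without KO replicate 2 (0.014). The second Mpp4 probe (A_55_P2064856) differed by -0.10 (standard error 0.17). Normexp background correction moved this to -0.37.

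The brighter Crb1 probe shared part of the pattern of the brighter Mpp4 probe. Of the 4 arrays of each genotype, replicate 2 was the lowest and replicate 4 the highest for both probes, and the brightest Patj probe was also lowest on replicate 2 in each group. The dimmer Crb1 probe did not follow, with its highest value of all arrays on HZ replicate 2 (-2.32) and its lowest on HZ replicate 1 (-3.19). Lin7a, which encodes a small PDZ protein that binds MAGUK scaffolds, followed Mpp3 instead, with -1.29 on HZ replicate 2 and -2.28 on KO replicate 2 and between -3.28 and -2.62 on the others. Markers of other cells moved over the same arrays. The score of a list of 11 tested Muller glia markers (the mean of their deviations from their means over the 8 arrays) was highest on HZ replicate 2 (0.61) and KO replicate 2 (0.38) and between -0.36 and 0.13 on the others. In summed signal, as multiples of the 75th percentile, this list ranged from 30.6 to 38.8 on HZ arrays and from 20.7 to 37.6 on KO arrays. A list of 3 vascular genes was likewise highest on HZ replicate 2 (0.35) and KO replicate 2 (0.57). The score of the bipolar list was also the highest of each group on replicate 2 (0.52 for HZ and 0.021 for KO). Lists of cone, of amacrine, horizontal and ganglion, of RPE and of microglia markers were not highest on both of these arrays. The cone score was 0.52 and 0.77 on HZ replicates 2 and 3, and -1.09 and -0.74 on HZ replicates 1 and 4. On KO arrays it was highest on replicate 4 (0.50). The score of the 8 rod markers was lowest on HZ replicate 2 (-0.15) and KO replicate 2 (-0.15) and highest on HZ replicate 4 (0.20). HZ replicate 3 (-0.13) was almost as low, so a low rod score was not particular to replicate 2. The part of these cells in the Mpp3 and Mpp4 values was not tested, and in a bulk sample fewer cells of a type and less RNA per cell cannot be told apart. Same-numbered arrays share a slide column and deviated together over all probes, so the 8 arrays are not independent of each other and no correlation coefficient with a p is given. The limma values in the text come from a fit without pairing, except where the replicate number is named as a block.

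**Figure D3:**
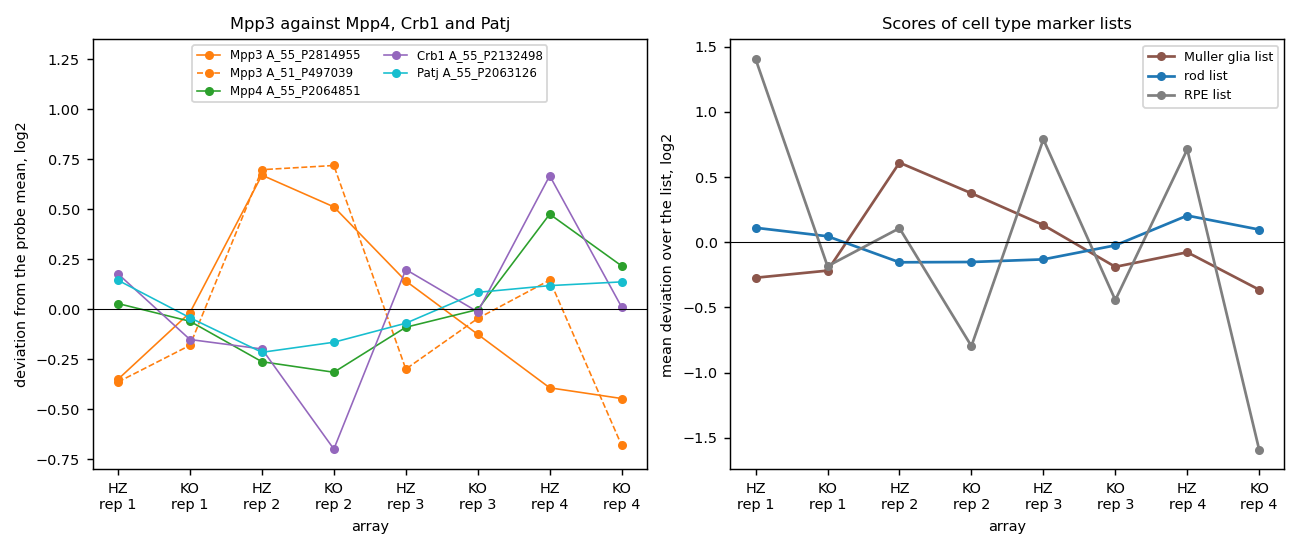
Left, deviation of each probe from its mean over the 8 arrays (log2) for Mpp3, Mpp4, Crb1 and Patj; right, scores of the Muller glia, rod and RPE marker lists on the same arrays, as mean deviation (log2). Arrays are set side by side by replicate number, and lines only link the points of a probe or list. On replicate 2 both Mpp3 probes are high, with the Muller glia list, and the brighter Mpp4 probe is low, with the rod list, while the RPE list separates the labels.

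The brighter probes of Crb1 and Mpp4 had replicate 2 as the lowest and replicate 4 as the highest array of each group. The dimmer Mpp4 probe did so on KO arrays only, and the dimmer Crb1 probe in neither group. Because of the brighter probes, the bases before the annotated starts of both genes are shown, a choice made after these values were seen. They are the 250 bases upstream of each start in RefSeq's annotation of GRCm38.p6, read 5′ to 3′ on the strand of the gene. Capitals mark matches to TAATCC, the core bound by CRX, or to TGCTGA, part of the site bound by NRL, on either strand (GGATTA or TCAGCA on the other), and these motifs do not overlap here. CRX and NRL are the transcription factors that drive photoreceptor genes. Mpp4 has a pair of annotated starts.
Crb1, chr1:139377077-139377326, minus strand: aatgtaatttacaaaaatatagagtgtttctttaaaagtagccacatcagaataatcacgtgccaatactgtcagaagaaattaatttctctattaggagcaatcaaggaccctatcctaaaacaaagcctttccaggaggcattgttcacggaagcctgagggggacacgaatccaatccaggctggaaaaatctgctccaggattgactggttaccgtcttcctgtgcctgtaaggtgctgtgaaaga
Mpp4, outer start, chr1:59163390-59163639, minus strand: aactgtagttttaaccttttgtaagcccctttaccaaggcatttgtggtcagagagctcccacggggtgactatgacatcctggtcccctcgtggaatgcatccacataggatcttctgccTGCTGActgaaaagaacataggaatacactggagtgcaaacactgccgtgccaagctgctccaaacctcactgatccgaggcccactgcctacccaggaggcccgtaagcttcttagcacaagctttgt
Mpp4, inner start, chr1:59161637-59161886, minus strand: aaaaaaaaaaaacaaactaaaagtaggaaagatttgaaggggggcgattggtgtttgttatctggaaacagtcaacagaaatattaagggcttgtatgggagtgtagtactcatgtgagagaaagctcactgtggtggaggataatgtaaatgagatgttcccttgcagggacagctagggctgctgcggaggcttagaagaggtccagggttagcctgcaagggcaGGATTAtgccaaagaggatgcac
The window of the inner Mpp4 start holds a match to the CRX core beginning 23 bases before the start, on the strand opposite to the gene, and that of the outer start a match to the NRL letters beginning 129 bases before it. Neither set of letters is in the Crb1 window. Of 13 windows available for 8 of the 10 genes, 1 held the CRX core and 3 the NRL letters, while 6.25% and 16.1% of 32851 windows of all genes did. A match is a run of letters and not a site known to be bound.

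The Par complex was read by 9 probes. Pard3, which encodes its PDZ scaffold, had 6 of them, 3 lower and 3 higher on KO arrays. The probe A_52_P224323 had -2.42, -2.86, -2.68 and -2.66 on HZ arrays and -2.45, -2.34, -2.27 and -2.01 on KO arrays. It was 1.31-fold higher on the latter (log2 difference 0.39, standard error 0.13, limma adjusted p = 0.519), although HZ replicate 1 lay among them, and 0.43 with normexp background correction (limma adjusted p = 0.226, the lowest in a range up to 0.902 over the alternatives). A_55_P1985015 had -0.48, -0.32, -0.24 and -0.51 on HZ arrays and -0.28, -0.060, -0.14 and -0.13 on KO arrays, and was higher on the KO array in 4 of 4 pairs. Its difference was 0.23 (standard error 0.096, limma adjusted p = 0.596), and normexp background correction lowered it to 0.13, no longer under an unadjusted p of 0.05. The other Pard3 probes included a pair with the same accession as the first, A_55_P1985012 and A_55_P2917735, at 0.042 (standard error 0.10) and -0.031 (standard error 0.23). A_52_P51548, with the accession of the second, was at -0.13 (standard error 0.25) through KO replicate 4, whose value of -0.55 lay far below the 0.48 to 0.64 of the other KO arrays, and at 0.15 without it. The brightest Pard3 probe (A_55_P1985025) differed by -0.042 (standard error 0.14).

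Pard6a, whose product links PARD3 to the kinase, was -0.22 ± 0.13 (SD, n = 4) on HZ arrays and -0.13 ± 0.20 (SD, n = 4) on KO arrays. Its difference of 0.086 (standard error 0.12, 95% interval -0.20 to 0.37) was -0.17 with normexp background correction and -0.013 without KO replicate 4. Prkci, the kinase of the complex, had 2.34, 2.24, 2.29 and 2.15 on HZ arrays and 2.44, 2.33, 2.36 and 2.26 on KO arrays. Each array of KO was above the HZ array of the same number, by about the same amount, and the groups overlapped. The difference was 0.093 (standard error 0.081, 95% interval -0.095 to 0.28, limma adjusted p = 0.763). A second Prkci probe (A_55_P2634647) was well above background on only 2 arrays of each group and gives no usable level.

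Llgl1 encodes a WD repeat protein that atypical protein kinase C keeps off the apical membrane. Its probe read 1.36, 1.56, 1.18 and 1.38 on HZ arrays and 1.67, 1.63, 1.58 and 1.83 on KO arrays. Every array of KO was above every HZ array, as for 4.2% of all tested probes. The difference was 0.31 on the log2 scale, or 1.24-fold (standard error 0.10, 95% interval 0.065 to 0.55, limma adjusted p = 0.530). It stayed between 0.24 and 0.37 with each array left out, but was 0.0084 (standard error 0.091) with normexp background correction, which starts from the median spot signal in place of the software's processed signal. Complete separation of the groups was thus seen for 2 of the 23 member probes, Crb2 below and Llgl1 above.

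The RPE list, which separated the labels, is given beside these results because pigment epithelium is itself a polarized epithelium that uses Crumbs and Par proteins. Its summed signal was 17.3 to 43.5 on HZ arrays and 8.13 to 15.3 on KO arrays. It was highest on HZ replicate 1 and lowest on KO replicate 4. Of the 23 member probes 13 were lower on KO arrays and 10 higher, and 49.5% of all tested probes were lower. Of 15 RPE markers, 1 (Lrat) was not tested for low signal, and Rlbp1 is also in the Muller glia list. Microglia markers had summed signals of 3.23 to 6.01 on HZ arrays and 4.42 to 7.54 on KO arrays. The part of RPE cells or microglia in the values of the polarity genes was not tested.

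Genes with the signal pattern most like that of the Crumbs genes over the 8 arrays were listed by Pearson's r among the brightest probes of all tested genes, as a description with no test. For Crb1 they were Gm10046, Arhgap5, Rasgef1a, Cmklr1 and Gbf1, with r from 0.971 to 0.992. For Crb2 they were Hps3, Rsrp1, Pisd-ps2, Vegfc and Sgo2b, with r from 0.960 to 0.968. All 10 had lower means on KO arrays, with log2 differences from -0.88 to -0.14. This follows in part from the choice and is no separate result. The probes of Crb1 and Crb2 matched here were themselves lower on KO arrays, and r was taken with that difference left in. None of the other polarity genes was among them.

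Other genes of the same modules were taken from a list of 38, of which 36 were tested. Crb3, the small Crumbs protein of epithelia, and the scaffold Mpp2 were not well above background on enough arrays. At an adjusted p of 0.05 limma called 0 of the 36, and 0 passed the looser thresholds. At an unadjusted p under 0.05, 0 were lower and 4 were higher, or 0% and 11.1% of the list, where 3.50% and 5.81% of all tested genes were. By their means 23 of the 36 were higher, with a median log2 difference of 0.054. The count at an unadjusted p was 2 when KO replicate 4 was left out, and also for HZ replicate 1 and for HZ replicate 3, and at most 6, when HZ replicate 2 was left out. Without HZ replicate 2 the calls over all 34280 tested probes, counted by probe and not by gene, also rose, from 2802 to 4996.

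The 5 largest differences in this list were those of Wwc1, Lin7a, Dlg2, Epb41l4b and Jam2. Wwc1, which encodes KIBRA, a protein that binds atypical protein kinase C and acts upstream of the Hippo pathway, had -1.88, -1.66, -1.45 and -1.63 on HZ arrays and -1.56, -0.87, -1.20 and -0.93 on KO arrays. They differed by 0.51 (standard error 0.17), with an adjusted p of 0.512 in limma. Epb41l4b, a FERM protein of epithelial junctions, had -2.08, -2.18, -2.36 and -2.23 against -1.95, -1.86, -1.997 and -1.87, with all KO arrays above all HZ arrays. Its difference was 0.29 (standard error 0.088, limma adjusted p = 0.480), below the 1.5-fold asked for by the looser thresholds. Dlg2, a MAGUK of the Scribble module, was 0.37 higher (standard error 0.13) with no overlap. Jam2, a junctional adhesion molecule, differed by 0.26 (standard error 0.15), and Lin7a by -0.40 (standard error 0.38), of which -0.029 was left without HZ replicate 2. Normexp background correction made these differences smaller, at 0.12 for Wwc1, 0.20 for Dlg2 and also for Epb41l4b, 0.12 for Jam2 and -0.22 for Lin7a.

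By module, 5 of 7 Scribble genes, 3 of 5 Par genes, 3 of 4 regulators, 2 of 3 other MAGUK scaffolds and 2 of 4 Crumbs partners had higher means on KO arrays, as did 8434 of all 14840 tested genes. Of the 13 junction genes, which include the cadherin and catenins that build the adherens junctions of the outer limiting membrane, 8 had higher and 5 lower means. Cdh2 and Ctnnb1, for N-cadherin and beta-catenin, differed by -0.089 (standard error 0.13) and 0.18 (standard error 0.099). Pard6b, a paralog of Pard6a, was 0.22 higher (standard error 0.086, limma adjusted p = 0.584) with no overlap. The groups did not overlap for 4 genes higher on KO arrays, Dlg2, Epb41l4b, Pard6b and Lin7c, and for 1 lower, Cadm1. That is 11.1% and 2.78% of the list, beside the 4.2% and 2.14% of all tested probes. The list was counted by gene on its brightest probe and the background by probe, so these shares are not in like units. Cdh2, Ctnnb1, Pard6b, Lin7c and Cadm1 were picked out here after their values were seen.

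**Figure D4:**
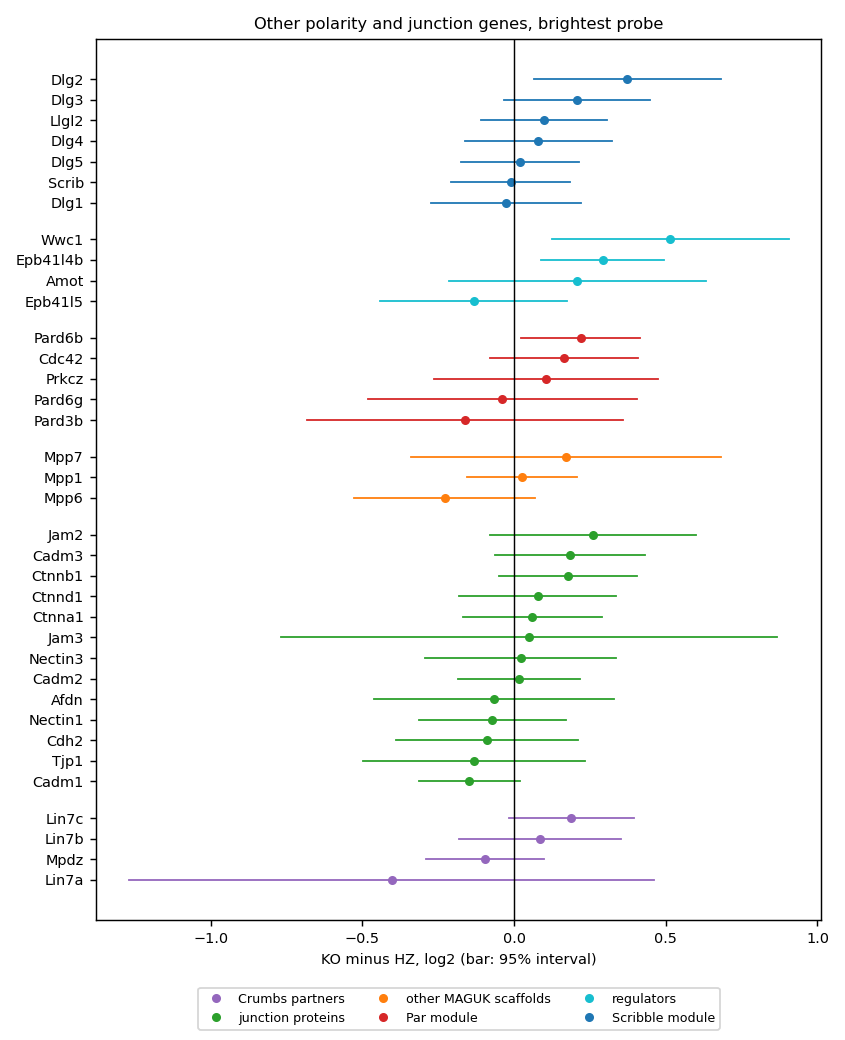
Difference between KO and HZ arrays (x axis, log2) for the brightest probe of the 36 tested genes around the Crumbs, Par and Scribble modules and the junctions, with 95% intervals from limma as bars and colours for modules. Most intervals hold 0, and those that do not are Wwc1, Epb41l4b, Dlg2 and Pard6b, on the higher side.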

How the data were processed

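The data were 8 one-color arrays of photoreceptor cells, 4 labelled HZ and 4 labelled KO. The authors deposited the spot intensity of each array from Agilent Feature Extraction 10.7.1.1, background-subtracted and with marks for outlier, saturated and well-above-background spots. The log2 values that the authors deposited had been shifted to the 75 percentile with GeneSpring and centred on each probe's median over the 8 arrays (53586 of 53586 rows), with column medians from -0.065 to 0.20, which served as an alternative. Their differences between arrays KO replicate 1 and HZ replicate 1 correlated with those used here at r = 1 (rounded), so scale and direction are known.

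Here the log2 processed signal was shifted by its 75th percentile, taken over the 59305 spots other than controls. Spots called outliers were dropped, and the mean was taken over the spots of each probe. A probe was tested if well above background on at least 4 arrays with at least 3 values in each group. On each array 59.5% to 63.8% of probes passed as well above background, and 0 spots were saturated. Accessions were named through RefSeq's table of GRCm38.p6 (names only, since the array design is annotated on another build). It named 32994 of 56605 probes. A gene in a list stands for its brightest tested probe.

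The groups were compared in limma 3.58.1 (lmFit, then eBayes, two-sided; R 4.3.3), with Benjamini-Hochberg adjustment over 34280 probes, and files were read with data.table (version 1.17.8). Both pairs of thresholds come from the methods, which do not assign them to these cells. Groups are as labelled. The members and the lists were chosen with earlier results of these data known. A gene of the wider list is not reported here, and the list's counts leave it out. Named are all members with every probe, the 5 genes of the wider list with the largest difference, Lpcat1 as a check, the 5 genes most like Crb1 and Crb2, and of the marker lists counts and scores. Further genes named in the text (Cdh2, Ctnnb1, Pard6b, Lin7c, Cadm1, Nt5e, and the genes not tested or in both lists) fall outside this rule. For the lists of cone, bipolar, amacrine with horizontal and ganglion, and vascular markers, the median log2 differences were 0.24 (6 tested), -0.40 (6), -0.15 (4) and -0.0054 (3), and for rod and Muller glia markers -0.043 (8) and -0.27 (11).

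As a check of pairing, each array's deviations from its group mean were correlated across groups. For equal replicate numbers r was 0.165 to 0.337 (over 0.1 for 4 of 4 pairs), and for unequal numbers -0.339 to 0.119. Arrays of equal number, which also share a slide column, were paired only where the replicate number is named as a block or same-numbered arrays are compared. The main fit has no block, so its standard errors, intervals and p-values are unpaired.

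The fit was tested on simulated data with 34008 probes. With 200 probes changed by 1.5 on the log2 scale, 76.4% of them were recovered at the strict thresholds. With 200 changed by 1 this was 56.1%, and with 200 changed by 0.5 it was 0% (5 rounds each). The simulated noise was independent between probes and between arrays, whereas same-numbered arrays here deviated together. These shares therefore describe the fit under independent noise and not the recovery in these data. The number of arrays limits the precision. Plots were drawn with matplotlib 3.10.9.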

Additional observations from a re-analysis of the deposited data

Results flagged for a closer look

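One array stood apart from the rest of its group in 5 of 76 groups of values checked, where about 3.8 are expected by chance. Mpp4 probe A_55_P2064856 was 0.20 on KO replicate 2, with 0.78 to 0.84 on the other KO arrays. Pard3 probe A_52_P51548 was -0.55 on KO replicate 4, with 0.48 to 0.64 on the others. Pard3 probe A_55_P2917735 was -3.04 on KO replicate 3, with -3.35 to -3.33 on the others. The mean deviation of the 10 polarity genes was 0.087 on HZ replicate 4, the array with 458 non-uniform spots, and between -0.021 and -0.0033 on the other HZ arrays. Lin7a was -1.29 on HZ replicate 2, with -2.89 to -2.62 on the others. The cause of these values was not tested.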

How the results depend on the processing

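Normalization was varied (quantile, a 75th percentile over spots well above background on all arrays, or the authors' processed values), as were the background (normexp, offset of 50), the filter on dim probes (none, or stricter), outlier spots (kept), the test (the methods' t-test, or eBayes with trend and robust), the block (replicate number) and the arrays (each left out once). The median of the members was also taken over the mean of a gene's probes. Under all of them 0 member probes passed either pair of thresholds. With the replicate number as a block, which pairs the arrays, 0 member probes passed the strict or the looser thresholds, but at the unadjusted level of 0.05 the brighter Crb1 probe was gained as lower. Its adjusted p was then 0.351, within 0.325 to 0.902 over its alternatives. Over all probes the block raised the calls at an unadjusted p under 0.05 from 2802 to 4075. It raised the looser calls from 278 lower and 78 higher to 909 and 253. The looser calls ranged from 0 to 1359 lower and from 0 to 371 higher with each array left out, both highest without HZ replicate 2. Of them 0 were left when HZ replicate 3, or KO replicate 3 or 4, was missing. The share of lower probes among the looser calls was 78.1%, 63.4% with quantile normalization and 83.1% with the percentile over spots well above background. It moved further with single arrays left out. Without HZ replicate 4 it was 53.9% (146 lower and 125 higher), and without HZ replicate 1 it was 100% (1 lower and 0 higher).

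With each array left out, the number of member probes at an unadjusted p under 0.05 lay between 1 and 5, that of the other polarity and junction genes between 2 and 6, and the median of the members between -0.061 and 0.029. Of all 34280 tested probes, between 2016 and 4996 were then at an unadjusted p under 0.05. The marker lists had medians of -0.48 to 0.092 (Muller glia), -0.051 to 0.51 (cone), -0.51 to -0.15 (bipolar), -0.39 to 0.055 (amacrine, horizontal and ganglion), -0.15 to 0.13 (vascular) and -0.13 to -0.0016 (rod). Leaving out HZ replicate 2 gave one end of each of these ranges except for cones, and HZ replicate 1 one end for Muller glia, cones, bipolar cells and rods. The remaining ends came from HZ replicate 3 (cones), KO replicate 2 (amacrine list) and HZ replicate 4 (vascular). The member and Lpcat1 differences that changed sign were each smaller than their standard error in the main fit, and the cause was not tested. Some were larger than it after the change, such as Pard6a (standard error 0.091) and Crb1 A_51_P478458 (standard error 0.13) with normexp background correction. The differences that changed sign with that correction were Crb1 A_51_P478458 (-0.18), Patj A_55_P2104422 (-0.014), Mpp3 A_55_P2814955 (0.049) and A_51_P497039 (0.059), Pard3 A_52_P51548 (0.21), A_55_P1985012 (-0.011) and A_55_P2917735 (0.13), Pard6a (-0.17) and Lpcat1 (0.0049). With the percentile over spots well above background they were Crb1 A_51_P478458 (-0.013) and Patj A_55_P2063126 (-0.022), and with quantile normalization Pard3 A_55_P2917735 (0.035). With each array left out, the range was -0.15 to 0.14 for Crb1 A_51_P478458, -0.11 to 0.077 for Mpp5, -0.061 to 0.065 for Patj A_55_P2063126 and -0.0010 to 0.21 for A_55_P2104422. It was -0.21 to 0.18 for Mpp3 A_55_P2814955, -0.35 to 0.13 for A_51_P497039, -0.18 to 0.068 for Mpp4 A_55_P2064851 and -0.17 to 0.050 for A_55_P2064856. For Pard3 it was -0.15 to 0.016 (A_55_P1985025), -0.25 to 0.15 (A_52_P51548) and -0.23 to 0.16 (A_55_P2917735). For Pard6a it was -0.013 to 0.13, for Prkci A_55_P2634647 -0.50 to 0.045 and for Lpcat1 -0.097 to 0.023.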
